A study of Mus musculus with 12 samples.

Results

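Cyclic nucleotide phosphodiesterases are the enzymes that break the signalling nucleotides cAMP and cGMP down to inactive monophosphates. The 10 genes described here, Pde1a, Pde2a, Pde3a, Pde3b, Pde4a, Pde4b, Pde4d, Pde5a, Pde7a and Pde8a, were chosen by name as catalytic members of the family, and all 10 were found among the 34538 genes measured. They were read in RNA-seq libraries from whole cochlea, the sensory organ of hearing, of wild-type C57BL/6J mice aged 12 months. Control mice drank plain water, a second group drank water with 0.1% black coffee and the remaining group drank water with 0.006% green tea extract (GTE), both from 3 to 12 months of age. Each group had 4 libraries, and nothing in the labels ties a library to its own animal; every p-value below therefore rests on differences among libraries. The labels give no caffeine content for either drink.

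The phosphodiesterases fall into families by sequence and substrate. Families 4, 7 and 8 act on cAMP, family 5 acts on cGMP, and families 1, 2 and 3 act on both. Adenylyl and guanylyl cyclases make the nucleotides, and protein kinase A, protein kinase G, the exchange proteins activated by cAMP and cyclic nucleotide-gated channels respond to them. Caffeine and other methylxanthines of coffee and tea are weak inhibitors of many phosphodiesterases at high concentration, while family 8 is known for its resistance to the methylxanthine IBMX. In the cochlea, cAMP is known as a signal in the ion-transporting epithelium of the lateral wall and cGMP as a signal in hair cells and vessels.

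No phosphodiesterase gene passed the test in coffee or GTE. Of the 10 members, 9 reached 1 FPKM (fragments scaled to exon length and library size) in at least 4 of the 12 libraries and were tested; Pde2a was not. Each of the 9 was within 0.229 of the control mean in coffee and within 0.228 in GTE on the log2(FPKM + 1) scale. The test was limma's moderated test on log2(FPKM + 1), with Benjamini-Hochberg adjustment over all 15854 genes tested and a threshold of 0.05. At that threshold 0 of 9 members passed for coffee against control, where 0.00631% of all tested genes passed, 0 of 9 for GTE against control, also beside 0.00631%, and 0 of 9 for GTE against coffee, beside 0%. The only gene of the whole table to pass, for coffee and for GTE against control alike, was Serpinh1, a collagen chaperone, named after its values were seen.

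Markers of the labelled tissue were present in every library, with summed levels of 541 to 1149 FPKM for the stria vascularis, 1898 to 4048 FPKM for spiral ligament fibrocytes and 149 to 338 FPKM for hair cells. Blood-forming cells of the surrounding bone were present too. The summed level of 11 myeloid marrow markers was between 10062 and 16329 FPKM in control, between 17172 and 26870 FPKM in coffee, and between 12095 and 32277 FPKM with GTE, so the coffee libraries all lay above the control libraries. Markers of the labelled tissue went the other way in coffee, with every coffee library below every control library. The stria vascularis markers were at 541 to 843 FPKM in coffee against 935 to 1149 FPKM in control. Spiral ligament fibrocyte markers were at 1898 to 3523 against 3754 to 4048 FPKM, and hair cell markers at 149 to 217 against 242 to 303 FPKM. Pairs of libraries within a group correlated between 0.953 and 0.975 in control, 0.938 and 0.970 in coffee, and 0.920 and 0.973 with GTE, across all tested genes, and no 2 libraries were identical. The denominators implied by the values lay between 20526024 and 24835934 fragments. In bulk tissue, fewer cells of a type and less RNA per cell cannot be told apart.

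Among the members, Pde8a and Pde4b had the highest levels per annotated exon base. Their means over the 12 libraries were 7.08 and 6.81 FPKM, and Pde8a was above Pde4b in 7 of 12 libraries, so this pair was not separated beyond its spread. Pde5a followed at 4.58 FPKM, below Pde4b in 10 of 12 libraries. Pde1a, Pde4a and Pde7a formed a group of close levels at 3.62, 3.55 and 3.52 FPKM: Pde1a exceeded Pde4a in 5 libraries and Pde4a exceeded Pde7a in 8. Pde4d at 2.28 FPKM was below Pde7a in 12 of 12 libraries, Pde3b at 1.78 FPKM was below Pde4d in 12 of 12, and Pde3a at 1.17 FPKM was below Pde3b in 11 of 12. Pde2a, at 0.0277 FPKM, was the only member whose range over the libraries did not meet that of its neighbour in the order. The order depends on the exons annotated, since FPKM is scaled to all exon bases of a gene. Pde8a has 4045 such bases and Pde4b 10560, and they held 8087 and 20331 fragments in all.

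**Figure D1:**
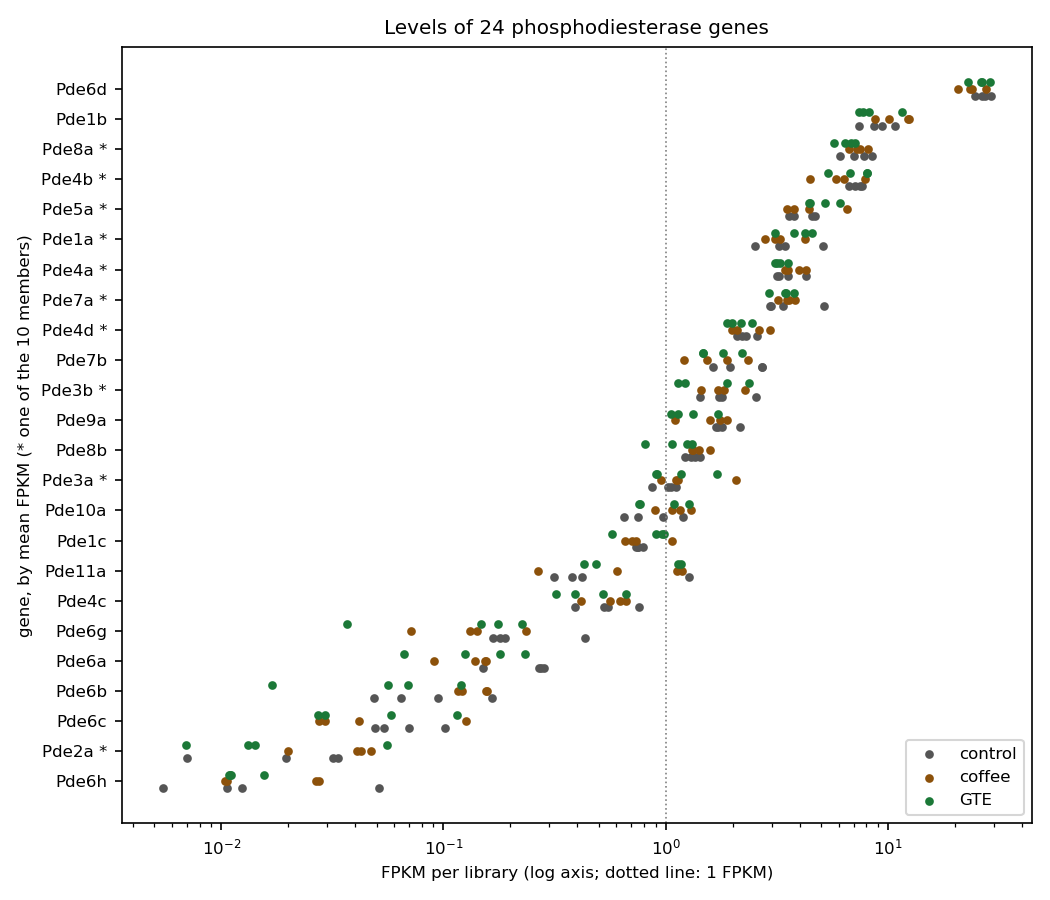
FPKM of 24 phosphodiesterase genes (log x axis), 1 point per library, coloured by group and ordered by mean; an asterisk marks the 10 members and the dotted line is at 1 FPKM. Pde8a and Pde4b lead the members, Pde2a lies far below the others, and the 3 colours overlap for every member.

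Promoter windows of the highest members, Pde4b and Pde8a, are shown because cAMP response elements, the sites bound by CREB, are among the ways cAMP signalling is known to feed back on phosphodiesterase genes. The sequences are from RefSeq (GRCm38.p6), 5′ to 3′ on the gene's strand, 250 bases before to 50 bases after an annotated start. Capitals mark TGACG or its reverse complement CGTCA, the core of the element. The Pde4b window is chr4:102421305-102421604, plus strand, with the match 34 bases before the RefSeq start. That start lies inside the GENCODE M21 gene, which begins at 102087543, and the other Pde4b windows held no match. The Pde8a window is chr7:81213015-81213314, plus strand, with the match 84 bases before the RefSeq start. This window lies wholly before the GENCODE M21 start of Pde8a at 81213596.
Pde4b: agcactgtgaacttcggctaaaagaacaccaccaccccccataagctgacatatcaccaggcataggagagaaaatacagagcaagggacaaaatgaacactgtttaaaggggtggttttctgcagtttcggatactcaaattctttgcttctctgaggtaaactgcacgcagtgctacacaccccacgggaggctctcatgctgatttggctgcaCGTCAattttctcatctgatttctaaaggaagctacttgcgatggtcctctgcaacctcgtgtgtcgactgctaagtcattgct
Pde8a: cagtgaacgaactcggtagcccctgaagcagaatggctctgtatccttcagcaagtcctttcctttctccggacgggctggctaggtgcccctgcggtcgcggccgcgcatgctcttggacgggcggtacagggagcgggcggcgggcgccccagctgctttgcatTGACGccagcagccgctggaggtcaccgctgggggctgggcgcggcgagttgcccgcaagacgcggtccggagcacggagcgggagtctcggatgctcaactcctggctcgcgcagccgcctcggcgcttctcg
RefSeq windows were found for 7 members, 19 in all; Pde3a, Pde3b and Pde7a are named only. TGACG on either strand was in 5 of these 19 windows, 1 each of Pde1a, Pde2a, Pde4a, Pde4b and Pde8a, which is 26.3% beside 20.8% of 32851 mouse windows of this length. The full element TGACGTCA was in 0 of the 19, beside 1.79% of all windows. The GC box GGGCGG, a different motif that does not contain TGACG, was in 5 windows of 4 members, 26.3% beside 35.7%. A match is a run of letters and not a measured binding site.

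The cAMP-specific members, Pde4a, Pde4b, Pde4d, Pde7a and Pde8a, made up most of the summed level of the 10 genes. Their sum was 24.1 ± 1.36 FPKM (SD, n = 4) in control, 23.3 ± 1.59 FPKM in coffee and 22.4 ± 0.915 FPKM in GTE. The sum over all 10 members was 34.7 ± 1.48 FPKM in control, 34.4 ± 3.30 FPKM in coffee and 34.2 ± 1.42 FPKM in GTE. The group means of both sums differed by no more than about the SD within a group, apart from the cAMP-specific sum in GTE, and these sums were not tested.

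Pde8a (chr7:81213596-81334533, plus strand, GENCODE M21 on mm10) encodes a high-affinity cAMP phosphodiesterase. It read 8.50, 7.01, 6.11 and 7.80 FPKM in control libraries 1 to 4, 7.50, 7.23, 6.65 and 8.14 FPKM in coffee and 7.08, 5.72, 6.80 and 6.40 FPKM in GTE. The control libraries spanned most of the range, and both other groups overlapped them, with GTE toward the lower end. The difference of GTE from control was -0.15 ± 0.10 (SE) on the log2(FPKM + 1) scale, with a limma 95% interval of -0.37 to 0.07 and an adjusted p of 0.627. Without control 1 it was -0.09 and without control 3 -0.23. For coffee against control it was 0.01 ± 0.10, with an interval of -0.21 to 0.23. Pde8a held 20.6% of the summed level of the 10 members on average, between 17.4% and 24.1% in single libraries.

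Pde4b (chr4:102087543-102607259, plus strand), a family 4 gene known for its role in inflammatory signalling of leukocytes, had the largest difference in coffee. Control libraries read 7.51, 7.64, 7.08 and 6.71 FPKM, coffee libraries 4.46, 6.37, 7.86 and 5.81 FPKM and GTE libraries 5.39, 8.03, 6.75 and 8.07 FPKM. The control values were close together, while coffee 1 and GTE 1 stood lowest and coffee 3 lay above every control library. The difference of coffee from control was -0.23 ± 0.15 (SE) on the log2(FPKM + 1) scale, interval -0.55 to 0.09, adjusted p 0.380 by limma. On fragments recovered from the FPKM values and tested with limma-voom, it was -0.27 in log2 fold, with an interval of -0.63 to 0.10. Leaving out coffee 1 gave -0.11 and leaving out coffee 3 gave -0.34 on the log2(FPKM + 1) scale. Coffee 1 and GTE 1 were also the libraries with the highest summed myeloid marrow markers, at 26870 and 32277 FPKM, but coffee 3 came next at 23502 FPKM and had a Pde4b level above every control library. The difference was 0.02 with the mean of those markers as a covariate and -0.03 without coffee 1, coffee 4 and GTE 1, the libraries highest in that mean. All coffee libraries had more marrow marker RNA than all control libraries, so marrow content and coffee cannot be told apart.

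Pde4a and Pde4d are the other family 4 members. Pde4a (chr9:21165714-21213248, plus strand) read 4.29, 3.56, 3.18 and 3.23 FPKM in control, 3.45, 3.56, 3.97 and 4.26 FPKM in coffee and 3.12, 3.27, 3.54 and 3.17 FPKM in GTE. The GTE libraries were the tightest, and 1 of them, GTE 3 at 3.54 FPKM, reached into the coffee range. GTE minus coffee was -0.17 ± 0.09 (SE) on the log2(FPKM + 1) scale, interval -0.37 to 0.03; its unadjusted p of 0.0882 was the smallest of the 27 member tests, with an adjusted p of 0.753 by limma. Pde4d (chr13:108449948-109953461, plus strand) read 2.29, 2.58, 2.20 and 2.08 FPKM in control, 2.0, 2.96, 2.10 and 2.64 FPKM in coffee and 1.99, 1.89, 2.45 and 2.19 FPKM in GTE, with the groups overlapping throughout. Family 4 genes make long and short isoforms from separate promoters, and GENCODE M21 lists 5 transcripts for Pde4a, 13 for Pde4b and 20 for Pde4d; values per gene do not separate them.

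Pde7a (chr3:19223108-19311322, minus strand), a cAMP phosphodiesterase known from T cells among other tissues, had close group means. It read 3.39, 2.97, 5.18 and 2.94 FPKM in control, 3.57, 3.53, 3.20 and 3.82 FPKM in coffee and 3.44, 3.77, 3.49 and 2.90 FPKM in GTE. Control 3 stood above all 11 other libraries, which lay between 2.90 and 3.82 FPKM. The coffee difference was -0.004 ± 0.134 (SE) on the log2(FPKM + 1) scale, interval -0.30 to 0.29. Without control 3 it was 0.15 for coffee and 0.10 for GTE.

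Pde5a (chr3:122728947-122859374, plus strand), the only cGMP-specific member and the target of sildenafil, had the largest difference in GTE. Control libraries read 4.71, 3.58, 4.53 and 3.78 FPKM, coffee libraries 4.43, 3.50, 3.76 and 6.55 FPKM and GTE libraries 6.10, 4.45, 5.20 and 4.41 FPKM. The highest values belonged to coffee 4 and GTE 1, while 2 of the 4 GTE libraries lay within the control range. GTE minus control was 0.23 ± 0.16 (SE) on the log2(FPKM + 1) scale, interval -0.12 to 0.58, adjusted p 0.641 by limma, and 0.27 in log2 fold on recovered fragments, interval -0.14 to 0.69. The log2(FPKM + 1) difference was 0.06 with the marrow marker covariate, and 0.15 without GTE 1 and also without the 3 libraries highest in marrow markers.

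Pde3a (chr6:141249269-141507448, plus strand) encodes a dual-substrate enzyme that cGMP inhibits, abundant in human platelets, heart and smooth muscle. It read 1.11, 1.02, 1.06 and 0.867 FPKM in control, 1.13, 1.11, 0.949 and 2.06 FPKM in coffee and 1.70, 0.905, 1.17 and 0.915 FPKM in GTE. As for Pde5a, coffee 4 and GTE 1 stood above the other libraries, and the rest of both groups overlapped control. Coffee minus control was 0.18 ± 0.15 (SE) on the log2(FPKM + 1) scale, interval -0.16 to 0.52, and 0.31 in log2 fold on recovered fragments, interval -0.26 to 0.88. Without coffee 4 alone the log2(FPKM + 1) difference was 0.04, and without coffee 1 alone 0.21. Without coffee 1, coffee 4 and GTE 1 it was 0.01.

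Markers of several blood-forming cell types were high in the libraries where both genes were high. The summed level of 5 platelet and megakaryocyte markers was 626 FPKM in coffee 4 and 737 FPKM in GTE 1, against 67.0 to 408 FPKM in the other 10 libraries. The same pair was highest in the summed B lineage markers, at 35.5 and 52.3 FPKM. In summed red cell precursor markers GTE 1 was highest, at 8745 FPKM. There GTE 2 at 7815 FPKM and coffee 1 at 5171 FPKM exceeded coffee 4 at 5131 FPKM. By the mean log2(FPKM + 1) of those markers coffee 4 and GTE 1 were highest, at 7.21 and 7.84. GTE 1 was highest in summed dividing cell markers, at 199 FPKM, followed by coffee 1 at 142 FPKM and coffee 4 at 131 FPKM. PDE3A and PDE5A are both known in human platelets. The choice of which marker list to set beside which gene was made after the values were seen, and the parts of these cell types in the Pde3a and Pde5a values were not tested.

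Pde3b (chr7:114415281-114539251, plus strand), the family 3 enzyme through which insulin is known to restrain fat breakdown in adipocytes, was low in some libraries that were poor in fat markers. It read 1.73, 2.56, 1.43 and 1.80 FPKM in control, 1.72, 1.83, 1.44 and 2.27 FPKM in coffee and 1.22, 1.14, 2.37 and 1.89 FPKM in GTE. The GTE libraries split into a low pair and a high pair that together covered almost the whole range. The 6 fat markers summed to 622 FPKM in control 2, where Pde3b was highest, and to 8.75 and 26.7 FPKM in GTE 2 and GTE 1, where it was lowest. Coffee 1 departed from this, with fat markers at 17.9 FPKM and Pde3b at 1.72 FPKM. The fat marker sums of the 3 groups overlapped, with sums between 92.2 and 622 FPKM in control, 17.9 and 241 FPKM in coffee, and 8.75 and 223 FPKM with GTE, and its part in the Pde3b values was not tested. GTE minus control was -0.13 ± 0.17 (SE) on the log2(FPKM + 1) scale, interval -0.50 to 0.24. It was -0.02 without control 2 and -0.25 without GTE 3.

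**Figure D2:**
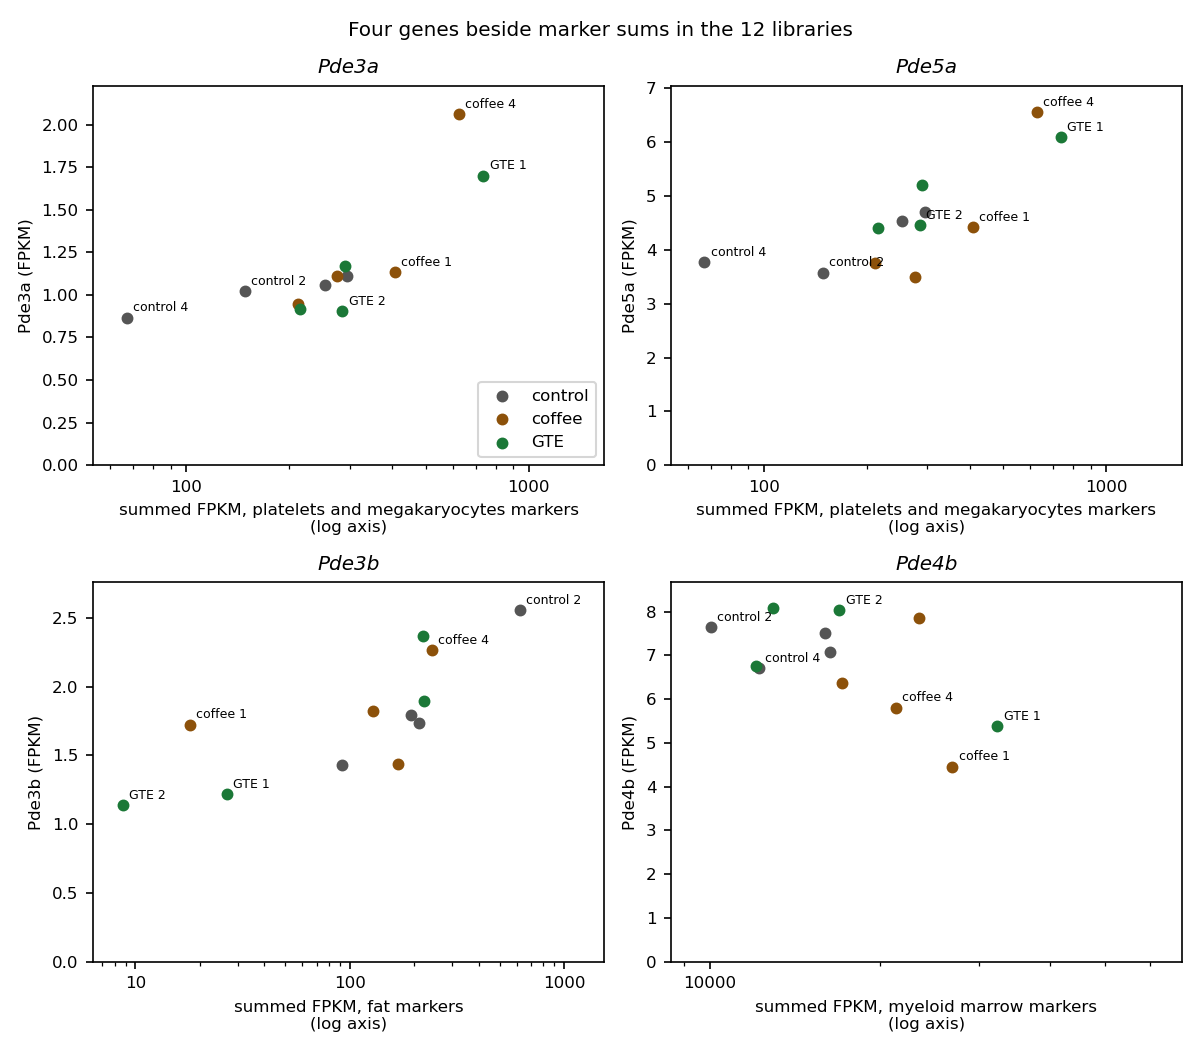
FPKM of Pde3a, Pde5a, Pde3b and Pde4b (y axes) against the summed FPKM of marker genes of another cell type (log x axes), 1 point per library, with some libraries labelled. Coffee 4 and GTE 1 are highest for Pde3a and Pde5a and for platelet markers, GTE 1 and GTE 2 are low for Pde3b and fat markers, and Pde4b is lowest in coffee 1.

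Pde1a (chr2:79834453-80129458, minus strand) encodes a calmodulin-stimulated enzyme that links calcium to cyclic nucleotide breakdown. It read 3.23, 3.45, 2.51 and 5.11 FPKM in control, 2.80, 4.25, 3.11 and 3.28 FPKM in coffee and 3.10, 3.78, 4.25 and 4.56 FPKM in GTE. Control held both the lowest and the highest of the 12 values. GTE minus control was 0.13 ± 0.17 (SE) on the log2(FPKM + 1) scale, interval -0.24 to 0.49, adjusted p 0.805 by limma. It was 0.01 without control 3 and 0.27 without control 4. With the marrow marker covariate, an alternative added after the values were seen, the difference was 0.37 in GTE and 0.35 in coffee; adjusted p was 0.467 and 0.466.

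Pde2a (chr7:101421691-101512827, plus strand), the cGMP-stimulated dual-substrate enzyme, was close to the detection limit. It read 0.0337, 0.0317, 0.0196 and 0.0070 FPKM in control, 0.0424, 0.0408, 0.0200 and 0.0472 FPKM in coffee and 0.0558, 0.0132, 0.0141 and 0.0069 FPKM in GTE. These values stood for 1 to 8 fragments per library and 48 in all, so no difference between groups was detectable at this depth. In GENCODE M21 the exons of Pde2a share 3955 bases, 64.3% of their length, with Gm45837, a gene on the same strand, and 2194 bases are not shared. Gm45837 held 0 to 2 fragments per library and 6 in all. How the authors' counting treated reads in shared exons is not given in the sources used here, so the level of Pde2a is uncertain.

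**Figure D3:**
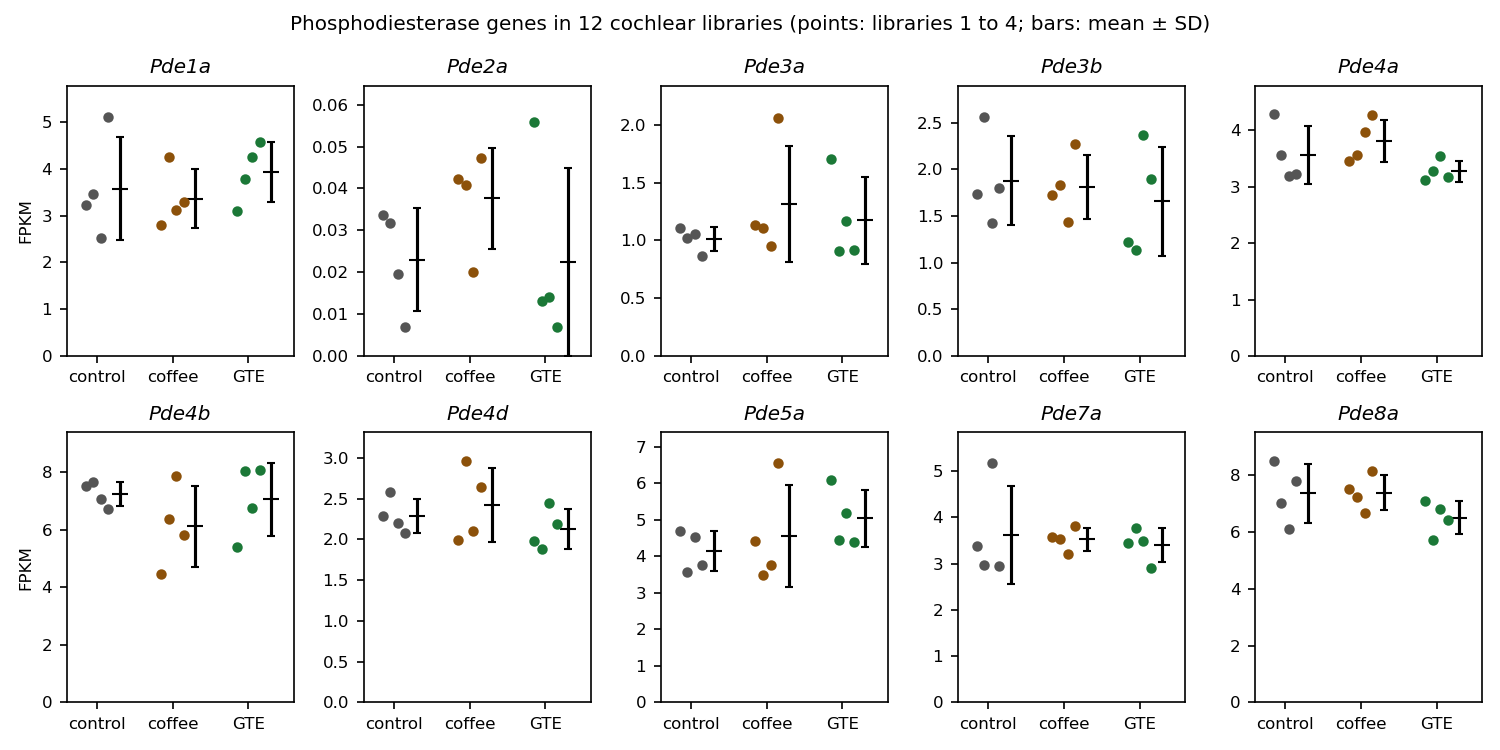
FPKM of the 10 phosphodiesterase members (y axes, each on its own scale from 0) in control, coffee and GTE libraries; points are libraries 1 to 4 from left to right and bars are mean ± SD. The 3 groups overlap for every member, and single libraries such as control 3 for Pde7a and coffee 4 for Pde3a and Pde5a set the widest SDs.

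The tested members differed in how much they varied among libraries. The coefficient of variation within groups was 31.5% for Pde3a, where counting alone gives 5.48%, 26.9% for Pde3b beside 5.22%, and 22.6% for Pde1a beside 4.49%. It was lowest for Pde4a, 10.7% beside 3.97%, and for Pde8a, 10.9% beside 3.87%. For Pde2a the 59.0% within groups was about the 58.9% that counting gives. The counting figures treat fragments as independent molecules and cover counting error only, while the coefficients within groups hold all differences among libraries.

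Taking the 9 tested members together, coffee minus control ranged from -0.23 to 0.18 on the log2(FPKM + 1) scale, GTE minus control from -0.15 to 0.23 and GTE minus coffee from -0.17 to 0.19. The widest 95% intervals reached -0.55 and 0.52, -0.50 and 0.58, and -0.47 and 0.54, so larger differences on this scale lie outside every interval. The median size of difference was 0.051 for coffee against control, where the median over all tested genes was 0.162, 0.096 beside 0.119 for GTE against control, and 0.141 beside 0.107 for GTE against coffee. At an unadjusted p under 0.05, 0 of 9 members were called in each comparison by limma on FPKM, where 20.0%, 8.43% and 6.76% of all tested genes were. Groups that did not overlap were found for 0 of 9 members, beside 12.8%, 5.83% and 2.54% of all tested genes. The comparisons with control share the same 4 control libraries. The scale log2(FPKM + 1) understates differences of low genes, most of all Pde3a and Pde3b.

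**Figure D4:**
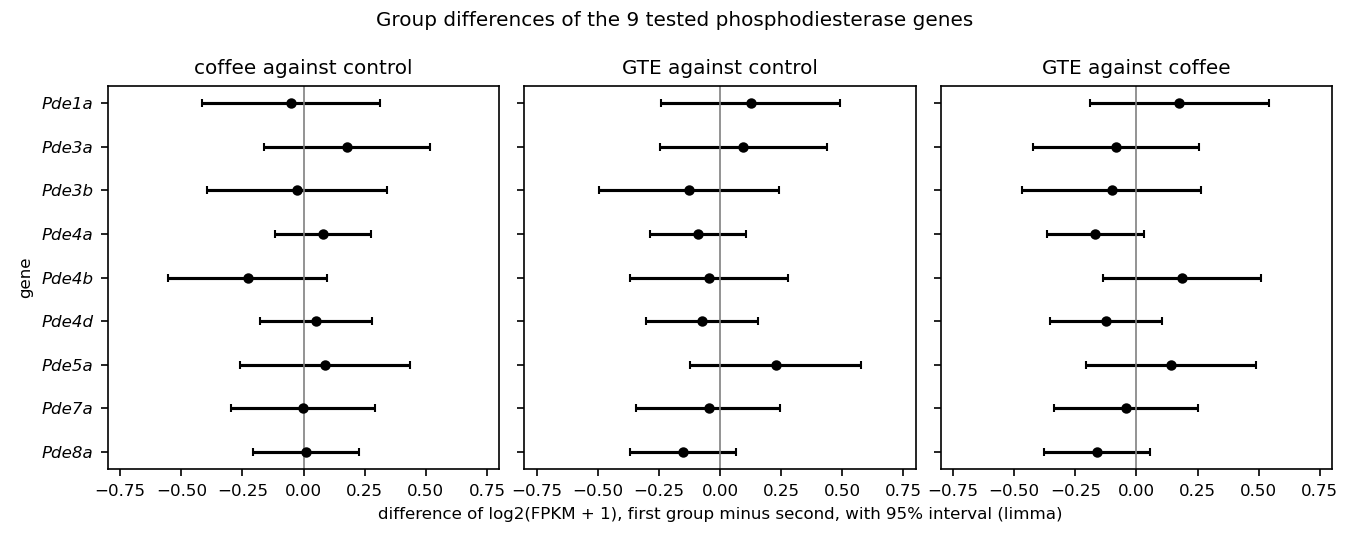
Differences of log2(FPKM + 1) between groups (x axis, first group minus second) for the 9 tested members (y axis), with 95% intervals from limma. Every interval crosses 0, and the points lie between -0.23 and 0.23.

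The other 14 phosphodiesterase genes were led by Pde6d at 25.6 FPKM, which despite its name is a carrier of lipid-modified proteins, and by Pde1b at 9.55 FPKM, a calmodulin-stimulated enzyme like Pde1a. Of these, 7 were tested, among them Pde7b at 1.91 FPKM and Pde8b at 1.28 FPKM, both cAMP-specific, and Pde9a at 1.58 FPKM, which is cGMP-specific. Pde10a at 0.991 FPKM and Pde11a at 0.733 FPKM act on both nucleotides. The photoreceptor genes Pde6a, Pde6b, Pde6c, Pde6g and Pde6h were at or below 0.178 FPKM and were not tested, nor were Pde1c at 0.80 FPKM and Pde4c at 0.533 FPKM. None of the 7 passed in any comparison by limma; at an unadjusted p under 0.05, 1 of 7 was called in GTE against control, beside 8.43% of all tested genes, and 0 in the other comparisons. That gene was Pde9a, at 1.31 ± 0.298 FPKM (SD, n = 4) in GTE and 1.84 ± 0.221 FPKM in control, with an adjusted p of 0.574. Pde8b was at 1.11 ± 0.226 FPKM in GTE and 1.41 ± 0.123 FPKM in coffee, with an adjusted p of 0.727 by limma. These groups did not overlap, as for 2.54% of all tested genes. They nearly met, with the highest GTE library at 1.3168 FPKM and the lowest coffee library at 1.3172 FPKM. On recovered fragments the unadjusted p of Pde8b was 0.0339 and its adjusted p 0.739 by limma-voom.

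The genes that make and read the nucleotides were taken as 8 lists of 79 genes, of which 63 were tested, and 0 passed in any comparison by limma. Counted with the 14 other phosphodiesterases, 70 tested genes held 3 higher and 6 lower at an unadjusted p under 0.05 for coffee against control, 12.9% beside 20.0% of all tested genes. For GTE against control 0 were higher and 5 lower, 7.14% beside 8.43%, and for GTE against coffee 1 was higher and 5 lower, 8.57% beside 6.76%.

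Among the 9 tested adenylyl cyclases, the enzymes that make cAMP, the values in coffee were 7 above and 2 below control, and in GTE 1 above and 8 below control. The median log2(FPKM + 1) difference was 0.04 in coffee and -0.13 in GTE, beside 0.01 over all tested genes in each comparison. At an unadjusted p under 0.05 by limma, 1 was higher and 1 lower in coffee, beside 20.0% of all tested genes. In GTE 0 were higher and 1 was lower, beside 8.43%. Adcy6 had the smallest p. It was at 18.5 ± 1.41 FPKM (SD, n = 4) in control, 14.2 ± 0.757 FPKM in coffee and 15.6 ± 1.16 FPKM in GTE, with every coffee library below every control library; adjusted p was 0.199 for coffee and 0.543 for GTE by limma. Adcy7, a cyclase known in blood cells, was at 6.30 ± 0.830 FPKM in control and 11.4 ± 3.68 FPKM in coffee. Its adjusted p was 0.220 by limma, and its groups did not overlap. Coffee and control did not overlap for 12.8% of all tested genes. The coffee libraries also had higher marrow markers than control, and with those markers as a covariate the Adcy7 difference went from 0.72 to 0.02 on the log2(FPKM + 1) scale, while without the 3 libraries highest in those markers it was 0.35. Marrow content and coffee cannot be told apart here. Adcy8, a calcium-stimulated cyclase, was at 0.768 ± 0.277 FPKM in GTE and 2.01 ± 0.867 FPKM in coffee, adjusted p 0.718.

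Of 5 tested guanylyl cyclases, Gucy2f, a photoreceptor enzyme by its known role, was at 1.33 ± 0.338 FPKM in coffee and 2.44 ± 0.267 FPKM in control. Its adjusted p was 0.199 by limma, with no overlap, as for 12.8% of all tested genes. Npr1, the receptor for atrial natriuretic peptide, was at 2.25 ± 0.406 FPKM in GTE and 2.79 ± 0.530 FPKM in control, adjusted p 0.574. Among the effectors, Rapgef3, which encodes the cAMP-activated exchange protein EPAC1, was at 20.9 ± 1.08 FPKM in control, 14.2 ± 3.27 FPKM in coffee and 16.9 ± 2.73 FPKM in GTE. Every coffee library and every GTE library lay below every control library, with adjusted p of 0.199 and 0.574 by limma. Coffee did not overlap control for 12.8% of all tested genes, and GTE lay wholly below control for 2.95%. Markers of the labelled tissue were also lower in every coffee library than in every control library. Fits with the marrow marker covariate and without the 3 libraries highest in those markers were also run for Adcy6, Gucy2f and Rapgef3. Their values are not reported here. The part of the labelled tissue's own cells in these differences was not tested. Of the 8 tested protein kinase A genes the smallest p belonged to Pkig, an inhibitor of the kinase, at 13.5 ± 0.825 FPKM in coffee and 15.4 ± 1.5 FPKM in control, adjusted p 0.248. Among cyclic nucleotide-gated channels, Hcn4 was at 1.51 ± 0.443 FPKM in GTE and 2.61 ± 0.715 FPKM in coffee, adjusted p 0.718.

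The 11 tested A-kinase anchoring proteins, which hold kinase and phosphodiesterase near each other in the cell, had a median log2(FPKM + 1) difference of -0.02 in coffee and 0.01 in GTE against control. Of 6 G protein alpha subunits, Gnaz was at 5.80 ± 1.52 FPKM in coffee and 3.89 ± 1.11 FPKM in control, adjusted p 0.234 by limma. The list of 15 genes for the CREB response, which reads cAMP in the nucleus, mixes CREB factors and coactivators with genes that they can induce. Of the 15, 12 had lower and 3 higher values in GTE than in control. The median difference was -0.25 beside 0.01 over all tested genes. These genes may not vary independently, and the share of lower values over all tested genes was not counted. The CREB-responsive kinase gene Sik1 was at 11.7 ± 1.34 FPKM in GTE and 15.6 ± 1.83 FPKM in control, adjusted p 0.561. Per1, a clock gene that cAMP induces, was at 12.5 ± 1.66 FPKM in GTE and 19.2 ± 4.95 FPKM in control, adjusted p 0.574; for both genes every GTE library lay below every control library, as for 2.95% of all tested genes. In coffee the same list had 8 higher and 7 lower values, a median of 0.04. Of these, 1 was higher and 2 were lower at an unadjusted p under 0.05 by limma, against 0 higher and 3 lower in GTE. The lower genes in coffee were Crem and Dusp1, with log2(FPKM + 1) differences of -0.314 and -0.555 and adjusted p of 0.229 and 0.239. Dusp1 was at 28.7 FPKM in coffee, 29.8 FPKM in GTE and 43.7 FPKM in control, so lower values in this list were not confined to GTE.

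A fit with sample weights, which counts libraries with larger residuals less, called 5 of the 18 genes named for coffee against control, which had been picked for the smallest p of each list. By limma with weights, adjusted p was 0.0236 for Adcy6, 0.0315 for Adcy7, 0.0269 for Gucy2f, 0.0190 for Rapgef3 and 0.0483 for Gnaz. The same weighted fit called 2437 genes of the whole table, 15.4% of those tested, and no phosphodiesterase member.

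The genes whose log2(FPKM + 1) values followed each member most closely over the 12 libraries were taken by Pearson's r, as a description. For Pde3b they were Elovl6 at 0.971, Kcnk3 at 0.941 and Slc36a2 at 0.937. For Pde5a they were Hebp1 at 0.913, Blvrb at 0.909 and Abcg3 at 0.905, and for Pde3a Rbpms2 at 0.953, Cela1 at 0.943 and Iba57 at 0.927. Pde1a was followed by Slc22a6 at 0.950, Nnat at 0.947 and Vps29 at 0.944. For Pde4b the nearest were Fgfrl1 at 0.954, Sirt2 at 0.952 and Cops7a at 0.951, for Pde4a Cxcl14 at 0.905, Tmem178 at 0.879 and Cabp7 at 0.856, and for Pde4d Pnpla6 at 0.910, Cep97 at 0.908 and Parp6 at 0.884. Pde7a had Adora2b at 0.897, Vnn3 at 0.870 and St3gal4 at 0.853, and Pde8a had Klf2 at 0.875, Klhl2 at 0.864 and Ccm2l at 0.860. These points share libraries, depth and the mix of cell types, and the highest values among the 15854 tested genes are chosen each time. Genes with clone, Gm, Rik or mitochondrial symbols were left out before the choice.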

How the data were processed

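The submitters' processing notes name HISAT2, HTSeq, Cufflinks and Trimmomatic and the mm10 build, without roles or versions. The libraries were made from Trizol-extracted total RNA with a stranded mRNA kit, per the labels' protocols. The authors deposited FPKM values for 34538 genes, 1 table per library. Using GENCODE M21 exon lengths, whole fragments were recovered from FPKM for 31897 genes (92.4%, within 0.01 fragment); 34459 IDs matched the annotation. The floor of 3 fragments on 2000 bases was 0.060 to 0.073 FPKM. Groups were compared with limma (version 3.58.1, R 4.3.3), using empirical Bayes and a mean-variance trend, on log2(FPKM + 1) of genes reaching 1 FPKM in 4 or more libraries, with 3 group means fitted over all 12 libraries. The script was tested on simulated data. Alternatives were other pseudocounts, filters, scalings and weights, each library left out, a replicate block, and, added after the values were seen, voom on recovered fragments, a marrow marker covariate, and the fit without the 3 libraries highest in those markers. Named genes were all members and, per pathway list and comparison, the 2 with the smallest p, and per member the 3 most alike genes. Some results under this rule are not reported here. The members, gene lists and marker lists were chosen with earlier results of these data known. The same exons can belong to more than 1 gene: Pde3a shared 5.8% of its exon bases with another gene, Rapgef3 5.5% and Npr1 11.7%.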

Additional observations from a re-analysis of the deposited data

Results flagged for a closer look

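In groups of 4 libraries, a single library stood apart in 8 of 72 groups tested with Dixon's test at its 95% critical value, over all 24 phosphodiesterase genes; chance flags about 1 in 20 groups. Pde3a read 2.06 FPKM in coffee 4, where the other coffee libraries read 0.949 to 1.13 FPKM. Pde11a, a dual-substrate phosphodiesterase, read 1.27 FPKM in control 2, where the other control libraries read 0.314 to 0.422 FPKM. Pde2a read 0.0558 FPKM in GTE 1, from 8 fragments, and the other GTE libraries read 0.0069 to 0.0141 FPKM, from 1 or 2 fragments each. All lay under the floor of 3 fragments on 2000 bases, but Pde2a has 6149 exon bases, so that floor does not describe it.

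The other flags fell on photoreceptor subunits at very low levels. Control 3 had the lowest Pde6a of the control libraries, 0.151 FPKM, and the highest Pde6g and Pde6h, 0.434 and 0.0513 FPKM. Pde6c read 0.127 FPKM in coffee 2, and Pde6h read 0.0155 FPKM in GTE 2.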

How the results depend on the processing

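No phosphodiesterase member passed in any comparison under any of the 25 alternatives run, and the smallest adjusted p of a member was 0.113, for Pde4b in coffee with sample weights. Of 654 member values, 611 kept their direction and 43 did not, 17 of them when a library was left out. The 611 include values that could not change direction. Leaving out a library of the group not compared leaves the difference itself as it was. So do the other filters, the fit of only the 8 libraries compared, the fit without the mean-variance trend and the replicate block. Genes passing over the whole table numbered 1 for coffee against control, 1 for GTE against control, 0 for GTE against coffee and 1 for any difference. With sample weights these became 2437, 4, 365 and 700, the cause of which was not tested. With the marrow covariate they were 4 for coffee, 0 for GTE against control and 2 for any difference, and without the 3 marrow-rich libraries 0, 0 and 0. Without the filter on low values coffee and any difference gave 0, with no mean-variance trend coffee gave 0, and fitting only the 8 libraries compared gave 0 for coffee and for GTE against control. Leaving out a library gave 0 to 98 for coffee against control, where 98 came without coffee 3 and 28 without GTE 1, 0 to 1 for GTE against control, 0 to 1 for GTE against coffee and 0 to 15 for any difference.

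A replicate block, fitted because the titles share numbers, gave 0 genes passing for coffee against control, 0 for GTE against control and 0 for any difference. Same-numbered libraries correlated at -0.383 to 0.55, over 0.1 in only 5 of 12 pairs, so the numbers were not taken to pair the libraries; different numbers gave -0.562 to 0.529.

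The values below changed sign, among them members near 0 and also Pde4b and Pde3a in coffee, whose main values were -0.229 and 0.179. They are on the log2(FPKM + 1) scale, apart from the value with a pseudocount of 0.1, which is on log2(FPKM + 0.1). For coffee against control, Pde7a was 0.002 with a pseudocount of 0.1; Pde4d was -0.019 and Pde8a -0.039 with quantile normalization; Pde3b was 0.079, Pde7a 0.056 and Pde8a -0.002 with sample weights. The marrow covariate gave Pde1a 0.349, Pde3a -0.08, Pde3b 0.223, Pde4b 0.017, Pde5a -0.197, Pde8a -0.051, Pde6d 0.009 and Akap13 -0.122. Without the 3 marrow-rich libraries Pde1a was 0.05, Pde5a -0.147 and Pde8a -0.066. For GTE against control, Pde4b was 0.018 with weights. The covariate gave Pde3a -0.06, Pde3b 0.022, Pde4b 0.105, Hcn2 0.096, Akap13 -0.103 and Gnai3 -0.035. Without the 3 libraries Pde3a was -0.014, Pde4b 0.063 and Akap13 -0.015. For GTE against coffee, weights gave Pde5a -0.074 and Rapgef4 0.034, the covariate gave Pde3a 0.02, Pde7a 0.022 and Akap13 0.02, and without the 3 libraries Pde3b was 0.068, Pde7a 0.004 and Rapgef4 0.02. The cause of these changes was not tested.

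Ranges over the libraries left out, for coffee against control, were -0.103 to 0.08 for Pde3b, -0.065 to 0.074 for Pde8a, -0.072 to 0.145 for Pde7a, -0.169 to 0.098 for Pde1a, -0.022 to 0.112 for Pde4d and -0.07 to 0.179 for Pde5a. For GTE against control they were -0.115 to 0.101 for Pde7a, -0.014 to 0.154 for Pde3a, -0.105 to 0.063 for Pde4b and -0.015 to 0.31 for Akap13. For GTE against coffee they were -0.168 to 0.095 for Rapgef4, -0.192 to 0.06 for Pde3a and -0.084 to 0.013 for Pde7a. The number of fragments limits what can be said of Pde2a and the Pde6 photoreceptor genes.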

Other observations

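Gnas, which encodes the stimulatory G protein subunit that activates adenylyl cyclases, was listed at 2.96 FPKM on average, between 2.17 and 4.09 FPKM over the 12 libraries. It was picked out after its values were seen. In GENCODE M21, Gm20721 and Nespas, both on the opposite strand, share 13.1% and 8.8% of its exon bases, and whether the counting used strand is not given in the sources used here.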
